A study of Mus musculus with 29 samples.

Results

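Genes that mark B cells and organise lymphoid tissue were followed in RNA-seq libraries of peritoneal tissue from 29 mice bearing gastric cancer cells. The group comprised 9 genes, which were Ms4a1, Cd79a, Cd79b, Cxcl13, Cxcr5, Ccl19, Ccl21a, Ltb and Ccr7. They were taken as the rows with these symbols among the 24421 genes of the deposited count table. All 9 had a row, 8 had counts in every library, and Ccl21a had none in any library.

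In lymphoid tissue, B cells carry an antigen receptor whose signal is passed on by the paired chains CD79A and CD79B, and mature B cells bear CD20, the product of Ms4a1. The chemokine CXCL13 draws cells that carry its receptor CXCR5 into B cell follicles, whereas CCL19 and CCL21 draw T cells, naive B cells and mature dendritic cells that carry CCR7 into the neighbouring T cell zone. Lymphotoxin beta, the product of Ltb, forms the membrane-bound lymphotoxin that signals to stromal cells through the lymphotoxin beta receptor, and this signal maintains chemokine production in lymph nodes and in tertiary lymphoid structures of inflamed or tumour-bearing tissue.

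The animals were female C57BL/6J mice, 5 to 6 weeks old at the start, and all of them received YTN16, a mouse gastric cancer cell line, by intraperitoneal injection. At day 21 there were 5 untreated mice, which were given PBS, and 5 mice given anti-PD1 and anti-CTLA4 antibodies together (dual ICI). At day 35 there were 5 untreated, 5 anti-PD1, 4 anti-CTLA4 and 5 dual ICI mice. Of the last, mice 1 and 5 were taken as uncured (n = 2) and mice 2, 3 and 4 as cured (n = 3), because the mouse numbers in the study match the replicate numbers in the library titles. The labels themselves do not give this outcome. Per the study, RNA came from the stripped peritoneum with or without nodules, although every library is labelled tumour tissue, so the cured tissue was body wall without visible tumour. Each library was one mouse. Per the study, the antibody-treated mice of day 35 were dosed again on day 21 and later, after the doses both days shared. The study also counted 1 anti-PD1 mouse as cured without giving its number, so that group was kept whole and mixes outcomes.

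Library totals lay between 25989217 and 31219650 counts. The 2 days belong to different series of library names, so time and library series cannot be told apart. Summed over 14 gastric epithelium markers, the 3 cured libraries held 124.2 to 194.9 CPM (counts scaled to library size, with TMM factors), and the other 26 libraries held 918 to 4422 CPM, except anti-PD1 mouse 5 at 150.4 CPM. That mouse lay within the range of the cured libraries. Whether it was the anti-PD1 mouse that the study counted as cured is not given. The 14 skeletal muscle markers summed to 266900 to 303300 CPM in the cured libraries and to 40280 to 58580 CPM in the uncured ones. In tissue of mixed composition, fewer cells of a type and less RNA per cell cannot be told apart.

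Ccl21a is shown by sequence first, because its row is at 0 in all 29 libraries. In GENCODE vM21 it lies on the minus strand of chromosome 4 (GRCm38, 42772860 to 42773993), next to Ccl19 (42754525 to 42756577, minus strand). The annotation also places a second entry of each of these genes on an unplaced scaffold. The coding sequence of Ccl21a has 402 bases and differs from that of its paralog Ccl21b at 2 of them, T84A and C194T, counted from 1 at the A of the start codon of Ccl21a, an identity of 99.5%. Bases 39 to 129 of the coding strand are given here for both genes, 5′ to 3′, with base 84 in capitals.
Ccl21a: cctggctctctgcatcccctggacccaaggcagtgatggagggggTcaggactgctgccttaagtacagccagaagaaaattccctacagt
Ccl21b: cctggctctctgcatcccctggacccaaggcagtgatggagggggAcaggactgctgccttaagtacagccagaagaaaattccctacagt
In a search for shared sequence, entries of the same name, such as the one on the scaffold, were not counted. Of the 721 windows of 150 bases in the Ccl21a transcript, 33.7% occurred unchanged in transcripts of Ccl21b, Gm10591, Gm13304 or Gm21541. The rows of these 4 genes, and those of Ccl21c, Gm1987 and Ccl27b, were also at 0 in all 29 libraries. The neighbouring Ccl19 had 1620 counts in all and Ccl27a 3602, each with counts in 29 of 29 libraries. Lyve1, a marker of the lymphatic endothelium that is a known source of CCL21, had a mean of 31.2 to 57.6 CPM in the 7 groups. How reads with several matches were counted is not given in the sources used here, so the row can be read only as listed at 0, and whether Ccl21a was expressed was not tested.

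Shared sequence also touches Ccl19, of whose shorter transcript (745 bases) 55.2% of the 150-base windows occurred in Ccl19-ps3, Gm12407 or Gm2564. The scaffold entry of Ccl19 was again not counted. None of the windows of the other 7 genes occurred elsewhere. Cxcr5 (chromosome 9, 44511787 to 44561877, minus strand) shares 110 exon bases with Bcl9l on the opposite strand. The library kit does not mark strand, and reads from these bases cannot be assigned to either gene.

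For Ltb, which had the smallest adjusted p of the 8 tested genes in the comparisons of cured with untreated and uncured with cured mice, the 250 bases before the RefSeq transcription start are shown (GRCm38.p6, chr17:35194257-35194506, plus strand). Capitals mark CAGGAAG, a core recognised by ETS factors, and GGAAAGTCC, the reverse complement of the NF-kB motif GGACTTTCC.
Ltb: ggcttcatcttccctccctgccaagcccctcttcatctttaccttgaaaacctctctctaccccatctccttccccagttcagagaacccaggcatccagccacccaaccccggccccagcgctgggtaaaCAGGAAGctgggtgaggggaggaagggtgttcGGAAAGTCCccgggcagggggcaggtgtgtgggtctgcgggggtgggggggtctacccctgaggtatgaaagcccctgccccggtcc
The NF-kB match lies 87 to 79 bases before the start, and the motif occurs on either strand in 93 of 32851 promoter windows of this length (0.283%). The CAGGAAG match lies 119 to 113 bases before the start, and that motif occurs in 10.8% of windows. Promoters of 5 of the 9 genes were found in the RefSeq table (Cd79a, Cxcl13, Ccl19, Ccl21a and Ltb). CAGGAAG also occurred once in that of Cd79a (56 to 50 bases before the start), and the NF-kB letters occurred in none of the other 4. TATAAA, the third motif searched on both strands, occurred in 12.4% of windows and, among these 5, in that of Cxcl13 (46 to 41 bases before the start). GENCODE starts Ltb at 35194439, inside the window shown, and both Ltb matches also lie before that start. It starts Cd79a at 24897381, inside the Cd79a window of 24897247 to 24897496. By that annotation the Cd79a match lies within the gene and not before it. These matches describe letters and not binding.

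Levels were low for most of the genes. Per kilobase of the longest coding transcript, Cxcl13 and Ltb had the highest group means, 9.69 and 7.72 CPM per kb in untreated mice at day 35. Ccl19 had 3.79, Cd79b 1.95, Ccr7 1.81, Cxcr5 1.18, Cd79a 0.949 and Ms4a1 0.214 CPM per kb in the same mice. Ms4a1 rested on 1 to 54 counts per library, Cd79a on 12 to 138, Ccl19 on 9 to 189 and Ccr7 on 5 to 248. Cxcl13 had the widest range, from 15 to 967 counts.

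**Figure D1:**
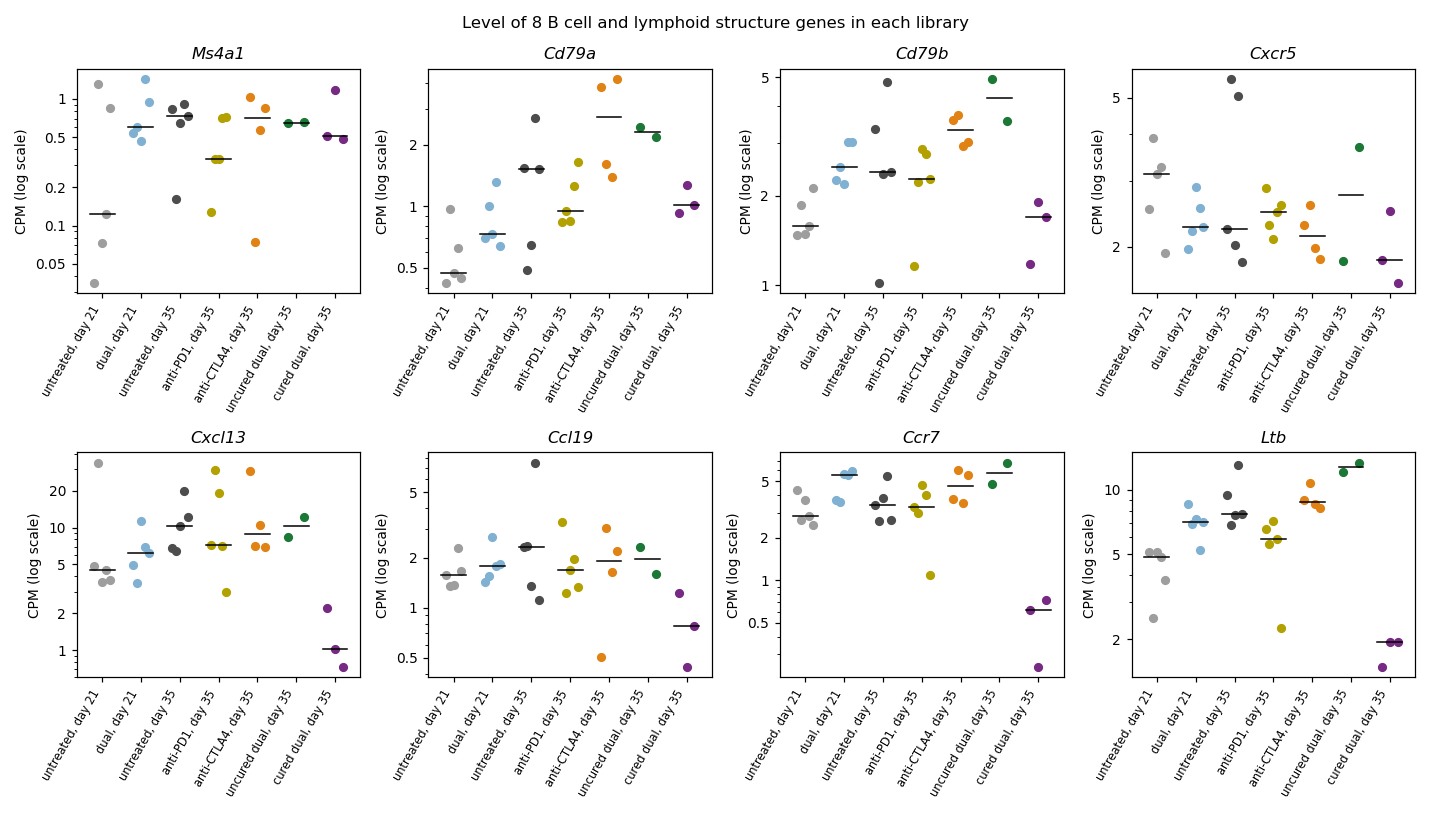
CPM on a log scale (y axis) of 8 genes in the 7 groups (x axis), with 1 point per mouse and a line at the group median. The 3 cured mice lie below every other mouse for Cxcl13, Ccr7 and Ltb, whereas the Ms4a1 values of the groups overlap.

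In the 9 comparisons, 8 of the 9 genes passed the filter on low counts each time, and Ccl21a was not tested. Between cured and untreated mice at day 35, 3 of the 8 were called at an adjusted p under 0.05, all of them lower in cured tissue, against 44.7% of the 15816 genes tested (26.7% lower and 18% higher). The same 3 did not overlap between the groups, as held for 27.4% of all genes in that direction. Between uncured and cured mice, 6 of the 8 were called, all higher in uncured tissue, against 70% of all genes (36.9% higher and 33.1% lower). These 6 did not overlap either, against 43.6% of all genes in that direction. Between untreated mice at day 35 and at day 21, 1 of the 8 was called, higher at day 35, against 10.8% of all genes (6.24% higher). At day 21, 0 of the 8 were called between dual ICI and untreated mice, against 0.574% of all genes (0.471% higher).

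In the remaining comparisons with untreated mice at day 35, edgeR called 0 genes of any kind, hence 0% of all genes, for anti-PD1, anti-CTLA4, uncured dual ICI and all 5 dual ICI mice together. Unadjusted p under 0.05 was reached by 205, 128, 787 and 1071 genes in that order, and DESeq2 called 0, 0, 17 and 46 genes, none of them among the 8. The median log2 fold change of the 8 genes was −1.30 in cured against untreated mice, where the median of all genes was −0.05, and 1.32 in uncured against cured mice, where it was 0.05. At this background, the shares for the 8 genes were not set apart from those of all genes by any test.

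**Figure D2:**
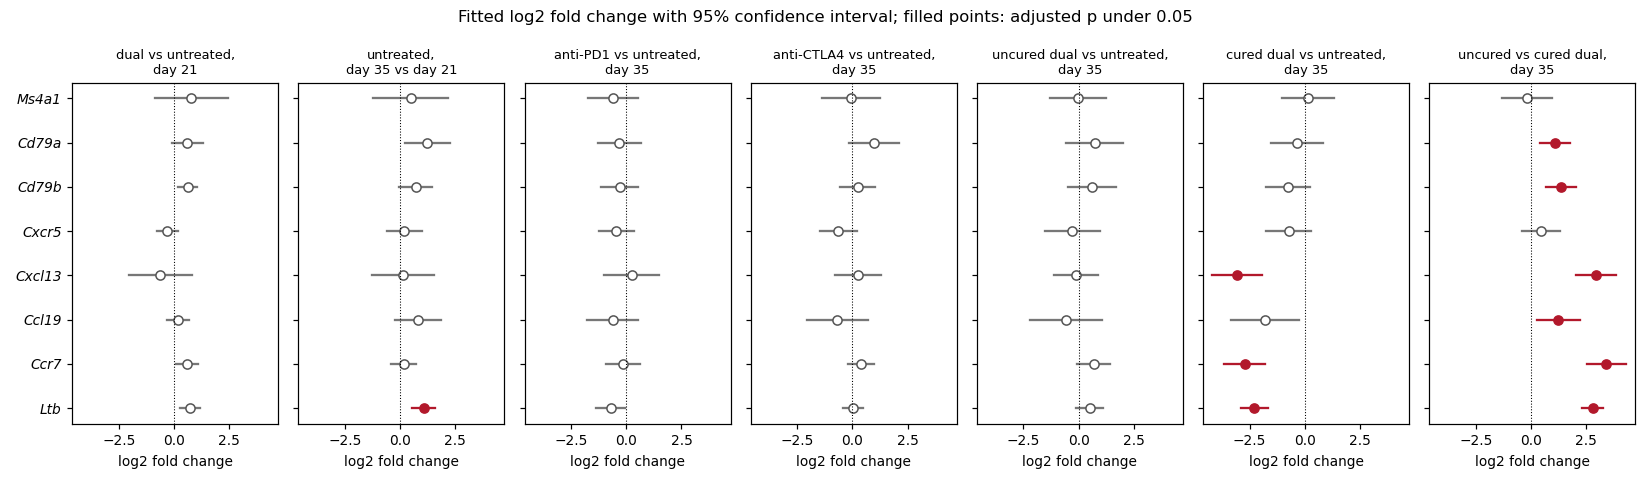
Fitted log2 fold change (x axis) with its 95% confidence interval for 8 genes (y axis) in 7 comparisons, filled where the edgeR adjusted p is under 0.05. Cxcl13, Ccr7 and Ltb are filled on the low side in cured against untreated mice, 6 genes are filled on the high side in uncured against cured mice, and Ltb alone is filled between days.

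Of the B cell surface genes, Cd79a and Cd79b were called between uncured and cured mice and Ms4a1 in no comparison. Ms4a1, the CD20 gene, had 0.512, 1.17 and 0.484 CPM in the cured mice, 0.642 and 0.655 CPM in the uncured mice, and 0.83, 0.163, 0.645, 0.915 and 0.734 CPM in untreated mice at day 35. These values overlapped, and no group was set apart from its neighbour in the order of the 7 group means, which ran from 0.799 CPM in dual ICI mice at day 21 to 0.446 CPM in anti-PD1 mice. The log2 difference between cured and untreated mice was 0.16 (SE 0.53, 95% confidence interval −1.02 to 1.34, edgeR adjusted p = 0.820). With an interval that wide, a log2 difference of up to about 1 in either direction was not excluded.

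Cd79a, a signalling chain of the B cell receptor, had 2.44 and 2.18 CPM in the uncured mice and 0.921, 1.27 and 1.02 CPM in the cured mice, without overlap. It was 2.11-fold higher in the uncured mice (log2 difference 1.08, SE 0.30, edgeR adjusted p = 0.0111). The call held in 10 of 12 alternatives, was lost in the fit of all 29 libraries and without uncured mouse 1, and the adjusted p ranged from 0.00393 to 0.0858. Untreated mice at day 35 spanned both groups, at 1.55, 0.488, 0.645, 2.7 and 1.53 CPM.

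The highest group mean of Cd79a was that of the anti-CTLA4 mice, 2.75 CPM ± 1.46 (SD, n = 4), in which mice 1 and 4 had 3.83 and 4.19 CPM and mice 2 and 3 had 1.61 and 1.39 CPM. Its log2 difference from untreated mice was 0.99 (SE 0.51, edgeR adjusted p = 1.0), so that a mean 1.98-fold higher was within the spread between mice. At day 21, untreated mice had 0.42, 0.968, 0.473, 0.621 and 0.445 CPM. The log2 difference between untreated mice at day 35 and day 21 was 1.23 (SE 0.46, edgeR adjusted p = 0.1003), and it was called in 3 of 18 alternatives, among them DESeq2 and the fit of all 29 libraries.

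Cd79b, the partner chain, had 4.94 and 3.57 CPM in the uncured mice and 1.18, 1.9 and 1.7 CPM in the cured mice. It was 2.61-fold higher in the uncured mice (log2 difference 1.38, SE 0.30, edgeR adjusted p = 0.00293) and was called in all 12 alternatives. Against untreated mice at day 35, which had 3.35, 1.02, 2.37, 4.81 and 2.41 CPM, the cured mice differed by −0.78 (SE 0.45, edgeR adjusted p = 0.178). At day 21, the 5 dual ICI mice (2.26, 2.5, 2.18, 3.02 and 3.02 CPM) all lay above the 5 untreated mice (1.47, 1.86, 1.49, 1.58 and 2.12 CPM), as 1.91% of all genes did. The log2 difference of 0.62 (SE 0.20) had an edgeR adjusted p of 0.240.

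Of the follicle chemokine pair, the ligand differed with outcome and the receptor was not called. Cxcl13 had 2.2, 1.02 and 0.726 CPM in the cured mice, 8.38 and 12.2 CPM in the uncured mice and 6.87, 6.38, 10.3, 19.9 and 12.2 CPM in untreated mice at day 35. Every cured mouse lay below every mouse of the 2 other groups. Cxcl13 was 8.34-fold lower in cured than in untreated mice (log2 fold change −3.06, SE 0.50, edgeR adjusted p = 0.00145) and 7.71-fold higher in uncured than in cured mice (log2 2.95, SE 0.39, edgeR adjusted p = 0.000174).

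Outside the cured mice, Cxcl13 varied widely between mice of a group. At day 21, untreated mouse 2 had 33.8 CPM and the other 4 untreated mice 4.84, 3.6, 4.54 and 3.75 CPM. Dual ICI mice had 4.98, 3.54, 11.3, 6.87 and 6.14 CPM. The log2 fold change of −0.62 (SE 0.65, edgeR adjusted p = 0.832) turned to 0.66 without untreated mouse 2. Anti-PD1 mice had 7.26, 29.5, 19, 7.1 and 2.99 CPM and anti-CTLA4 mice 28.7, 7.07, 10.5 and 6.99 CPM. Untreated mouse 2 of day 21 and anti-CTLA4 mouse 1 stood far above the rest of their groups.

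Cxcr5, the receptor for CXCL13, had 1.84, 2.48 and 1.6 CPM in the cured mice and 2.23, 5.61, 2.02, 5.05 and 1.82 CPM in untreated mice at day 35. These ranges overlapped, and the log2 difference was −0.74 (SE 0.46, 95% confidence interval −1.76 to 0.29, edgeR adjusted p = 0.211). Group means over all 7 groups lay between 1.98 and 3.35 CPM. The 2 uncured mice differed from each other, at 1.83 and 3.68 CPM.

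The remaining groups filled in the order of levels. In anti-CTLA4 mice Ms4a1 had 1.04, 0.0748, 0.568 and 0.851 CPM, in anti-PD1 mice 0.129, 0.336, 0.334, 0.707 and 0.723 CPM. At day 21 it had 0.535, 0.597, 0.463, 1.44 and 0.955 CPM with dual ICI and 0.035, 1.32, 0.0727, 0.124 and 0.854 CPM without treatment, where the lowest value was 1 count. Within these groups Ms4a1 ranged more widely than its group means did.

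Cxcr5 had 2.28, 2.58, 1.99 and 1.85 CPM in anti-CTLA4 mice and 2.86, 2.29, 2.09, 2.47 and 2.58 CPM in anti-PD1 mice. At day 21 it had 1.97, 2.2, 2.88, 2.54 and 2.26 CPM with dual ICI and 2.52, 3.91, 3.13, 3.26 and 1.93 CPM without treatment. Neighbouring groups in the order of its means overlapped throughout. For Cd79b, group means ran from 4.26 CPM in uncured mice through 3.33 in anti-CTLA4 and 2.26 in anti-PD1 mice to 1.59 CPM in cured mice, again with overlap between neighbours.

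Of the T cell zone genes, Ccr7 was called between cured and untreated mice and Ccl19 was not. Ccr7, the receptor of CCL19 and CCL21 on naive lymphocytes and mature dendritic cells, had 0.614, 0.244 and 0.726 CPM there, from 5 to 15 counts. Uncured mice had 4.75 and 6.76 CPM, and untreated mice at day 35 had 3.41, 2.6, 3.78, 5.41 and 2.67 CPM. Every cured mouse lay below every mouse of both other groups, which overlapped each other. Ccr7 was 6.62-fold lower in cured than in untreated mice (log2 fold change −2.73, SE 0.42, edgeR adjusted p = 0.00101) and 10.7-fold higher in uncured than in cured mice (log2 3.41, SE 0.39, edgeR adjusted p = 6.79e-05). At day 21, dual ICI mice had 3.66, 3.54, 5.59, 5.56 and 5.92 CPM and untreated mice 4.34, 2.67, 3.71, 2.86 and 2.45 CPM, a log2 difference of 0.61 (SE 0.23) with an edgeR adjusted p of 0.348.

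Ccl19, a ligand of CCR7, had 1.23, 0.438 and 0.775 CPM in the cured mice and 2.34 and 1.61 CPM in the uncured mice. It was 2.38-fold higher in the uncured mice (log2 1.25, SE 0.42, edgeR adjusted p = 0.0270). Only 6 of 11 alternatives kept the call, with adjusted p from 0.0115 to 0.172, and DESeq2, the fit of all 29 libraries and leaving out uncured mouse 1, cured mouse 3 or cured mouse 4 lost it. Untreated mice at day 35 had 2.32, 2.36, 1.35, 7.52 and 1.12 CPM, of which the last lay below the highest cured mouse. The log2 fold change of −1.82 (SE 0.69) between cured and untreated mice missed the threshold (edgeR adjusted p = 0.0554), was called in 5 of 15 alternatives, and was −1.06 without untreated mouse 4.

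In the other groups Ccl19 means lay close together, at 1.90 CPM with anti-PD1, 1.86 with dual ICI at day 21, 1.84 with anti-CTLA4 and 1.66 CPM in untreated mice at day 21. Neighbours in this order overlapped, and the untreated mice of day 21 did not overlap with the cured mice, which came last. The Ccr7 means were 4.71 CPM with anti-CTLA4 and 3.22 CPM with anti-PD1, on both sides of the 3.57 CPM in untreated mice at day 35.

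Ltb, the membrane anchor of lymphotoxin, was low in the cured mice. It had 1.48, 1.95 and 1.94 CPM there, 12.1 and 13.4 CPM in the uncured mice and 9.44, 6.83, 7.65, 13.1 and 7.75 CPM in untreated mice at day 35. Cured mice lay below all others, with no overlap with the group next in order, untreated mice at day 21. Ltb was 4.9-fold lower in cured than in untreated mice (log2 fold change −2.29, SE 0.28, edgeR adjusted p = 0.000293) and 6.97-fold higher in uncured than in cured mice (log2 2.80, SE 0.21, edgeR adjusted p = 5.73e-06).

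Ltb was also the gene of the 8 called between days in mice without treatment. Untreated mice at day 21 had 5.12, 2.52, 5.13, 4.85 and 3.79 CPM, all below the 5 untreated mice at day 35, as 5.92% of all genes were. It was 2.09-fold higher at day 35 (log2 1.07, SE 0.24, edgeR adjusted p = 0.0209). The call was lost without untreated mouse 5 of day 21 (adjusted p = 0.0589) and kept in the other 17 of 18 alternatives, with a lowest adjusted p of 0.000498. Within day 21, the dual ICI mice had 8.6, 6.9, 7.34, 5.24 and 7.07 CPM and did not overlap with the untreated mice. That log2 difference of 0.72 (SE 0.21) had an edgeR adjusted p of 0.192, and DESeq2 called it with an adjusted p of 0.0385.

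Anti-PD1 mice had 6.59, 5.59, 7.19, 5.88 and 2.27 CPM of Ltb, a log2 difference of −0.70 from untreated mice (SE 0.30, edgeR adjusted p = 1.0). The lowest of these was mouse 5, which also had the lowest Ccr7 (1.08 CPM) and Cxcl13 (2.99 CPM) of its group and the gastric epithelium sum given above. Without it, the Ltb difference was −0.51. Anti-CTLA4 mice had 9.02, 10.8, 8.58 and 8.27 CPM, and the difference from untreated mice was 0.02 (SE 0.21, 95% confidence interval −0.44 to 0.47).

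The uncured mice were compared with untreated mice at the same day as well. Ltb differed by 0.50 (SE 0.27), Ccr7 by 0.68 (SE 0.33), Cd79a by 0.74 (SE 0.57), Cd79b by 0.60 (SE 0.48), Cxcl13 by −0.12 (SE 0.43) and Ms4a1 by −0.03 (SE 0.56) on the log2 scale. The edgeR adjusted p was 0.734 to 0.989 for these 6 genes. With all 5 dual ICI mice as one group, as the labels have them, the log2 differences from untreated mice were −0.54 for Ltb (SE 0.63), −0.45 for Ccr7 (SE 0.77), −1.19 for Cxcl13 (SE 0.73) and −1.18 for Ccl19 (SE 0.60). For Ltb and Ccr7, that group joined 3 cured mice below the untreated range with uncured mouse 5 above it and uncured mouse 1 within it. For none of the 8 genes did the effect in the uncured mice at day 35 differ from the effect of dual ICI at day 21 by the interaction term, for which edgeR called 0 genes, 1050 had an unadjusted p under 0.05, and DESeq2 called 1 gene. The uncured mice of day 35 had received more doses than the mice of day 21, so this term also compares unlike treatment.

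Several other genes of the lymphotoxin pathway were lower in cured tissue. Of 14 listed genes of lymphotoxin and noncanonical NF-kB signalling, 8 fell and 0 rose between cured and untreated mice, where 26.7% of all genes fell and 18% rose. The median log2 fold change of the 14 was −0.90, and that of all genes was −0.05. Relb, a transcription factor of the noncanonical pathway, fell by 1.499 on the log2 scale (SE 0.20, edgeR adjusted p = 0.000483). Nfkb2, which encodes its partner, fell by 1.23 (SE 0.15, adjusted p = 0.000337), and Ltbr, the lymphotoxin beta receptor, fell by 1.27 (SE 0.25, adjusted p = 0.00321). Tnfsf13b, which encodes the B cell survival factor BAFF, fell by 1.95 (SE 0.33, adjusted p = 0.00176). Map3k14, the kinase of the pathway, had −0.31 (adjusted p = 0.0855), and Traf3, its inhibitor, had −0.02 (adjusted p = 0.937). Between uncured and cured mice, 10 of the 14 rose and 0 fell, where 36.9% of all genes rose, and Relb had 58.1 to 61.7 CPM in the uncured and 16.2 to 22.2 CPM in the cured mice. Between untreated mice of the 2 days, Ltbr (log2 0.73, adjusted p = 0.0344) and Relb (log2 0.70, adjusted p = 0.0314) rose together with Ltb, 2 of 14 where 6.24% of all genes rose.

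Of 17 genes of lymphocyte homing tested, 8 fell and 3 rose in cured against untreated mice, with a median of −0.65, beside 26.7% lower and 18% higher among all genes. The 3 that rose were near that background share. The adhesion molecules Vcam1 and Icam1, which are induced by NF-kB, fell by 3.70 (SE 0.33, edgeR adjusted p = 0.000129) and 2.42 (SE 0.28, adjusted p = 0.000233). Chst4, a sulfotransferase known from high endothelial venules, had a mean of 19.65 CPM over all libraries. It fell by 2.72 (SE 0.50, adjusted p = 0.00254), and which cells expressed it was not tested. Cxcl12, a stromal chemokine, rose by 0.87 (SE 0.25, adjusted p = 0.0195), and Cd34 by 1.10 (SE 0.18, adjusted p = 0.00143). Defining genes of these vessels were at the limit of detection, with 0 to 8 counts per library for Glycam1 and 0 to 3 for Madcam1. Of 7 listed stromal genes tested, 5 fell and 0 rose against the same background. Among them were Clu by 2.76 (SE 0.28, adjusted p = 0.000168) and Pdpn, which encodes podoplanin, by 0.82 (SE 0.17, adjusted p = 0.00481). The list sum, led by the desmin gene Des (mean 3730 CPM), was not lower. Its median was 6698 CPM in cured and 5277 CPM in untreated mice, with overlapping ranges. Which cells expressed these genes was not tested.

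Of 15 further B cell genes tested in cured against untreated mice, 3 rose and 4 fell, with a median of −0.09. These shares were near the 18% and 26.7% of all genes and are no result about the list. Bank1 (log2 1.47, SE 0.27, edgeR adjusted p = 0.00273), Tnfrsf13c, the BAFF receptor (1.42, SE 0.43, adjusted p = 0.0248), and Ebf1 (0.87, SE 0.19, adjusted p = 0.00552) rose. Spib (−3.79, SE 0.54, adjusted p = 0.000677), Cd72 (−2.81, SE 0.46, adjusted p = 0.00147), Cd22 (−1.86, SE 0.48, adjusted p = 0.0121) and Blnk (−1.86, SE 0.20, adjusted p = 0.000182) fell. Several genes of this list are also used outside B cells, Ebf1 in adipocytes and Spib in plasmacytoid dendritic cells and epithelium. Pax5, which defines the B lineage, had 0 to 19 counts per library.

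Germinal centre genes were scarcely detected where they are specific, with 0 to 7 counts per library for Rgs13. Of 7 tested in this list, 5 fell and 1 rose in cured mice, beside 26.7% and 18% of all genes. Pdcd1, the PD1 gene of activated and follicular helper T cells, fell by 3.77 (SE 0.37, edgeR adjusted p = 0.000151), and Bcl6, which many cell types express, rose by 1.14 (SE 0.15, adjusted p = 0.000519). At day 21, Sh2d1a, which encodes the adaptor SAP of T and NK cells, was 11.0-fold higher with dual ICI (log2 3.46, SE 0.40, adjusted p = 0.00681). Sh2d1a is a gene of low count, and it did not pass the filter between all dual ICI and untreated mice at day 35.

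T cells and dendritic cells are among those that carry CCR7. Of 12 T cell genes, 7 fell and 0 rose between cured and untreated mice, with a median of −1.16, where 26.7% of all genes fell. Cd4 had 1.36 to 1.48 CPM in the cured, 2.44 to 4.51 CPM in the untreated and 8.31 to 8.92 CPM in the uncured mice. Of 12 dendritic cell genes, 7 fell and 0 rose against the same background, among them Ccl22 (log2 −2.18, SE 0.39, edgeR adjusted p = 0.00226), a chemokine of mature dendritic cells. Tcf7, a factor of naive and memory T cells, fell by 2.55 (SE 0.31, adjusted p = 0.000288). At day 21, 4 of 12 T cell genes rose with dual ICI, beside 0.471% of all genes (Cd8a, Cd8b1, Cd3g and Cd247), Cd8a by 2.31 (SE 0.35, adjusted p = 0.0193), while none of the 8 genes followed here was called.

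Tissue markers moved with the outcome on a larger scale. All 11 gastric epithelium genes tested fell in cured against untreated mice, with a median log2 fold change of −6.56, and 5 of 14 skeletal muscle genes rose, with a median of 1.45. Their part in the lower Cxcl13, Ccr7 and Ltb was not tested. With only these 14 muscle genes left out of the counts, Cxcl13, Ccr7 and Ltb were called again. All other differences in tissue content stayed in the libraries, so that fit cannot show their part. Untreated mouse 2 at day 35 had a muscle sum of 236360 CPM, near the cured range. Its gastric epithelium sum was 1279 CPM, against 124.2 to 194.9 CPM in the cured mice. It had 6.83 CPM of Ltb, 2.6 CPM of Ccr7 and 6.38 CPM of Cxcl13, each above all 3 cured mice. Anti-PD1 mouse 5, with a muscle sum of 273350 CPM and the low epithelial sum, had 2.27 CPM of Ltb, 1.08 CPM of Ccr7 and 2.99 CPM of Cxcl13, close above the cured mice.

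**Figure D3:**
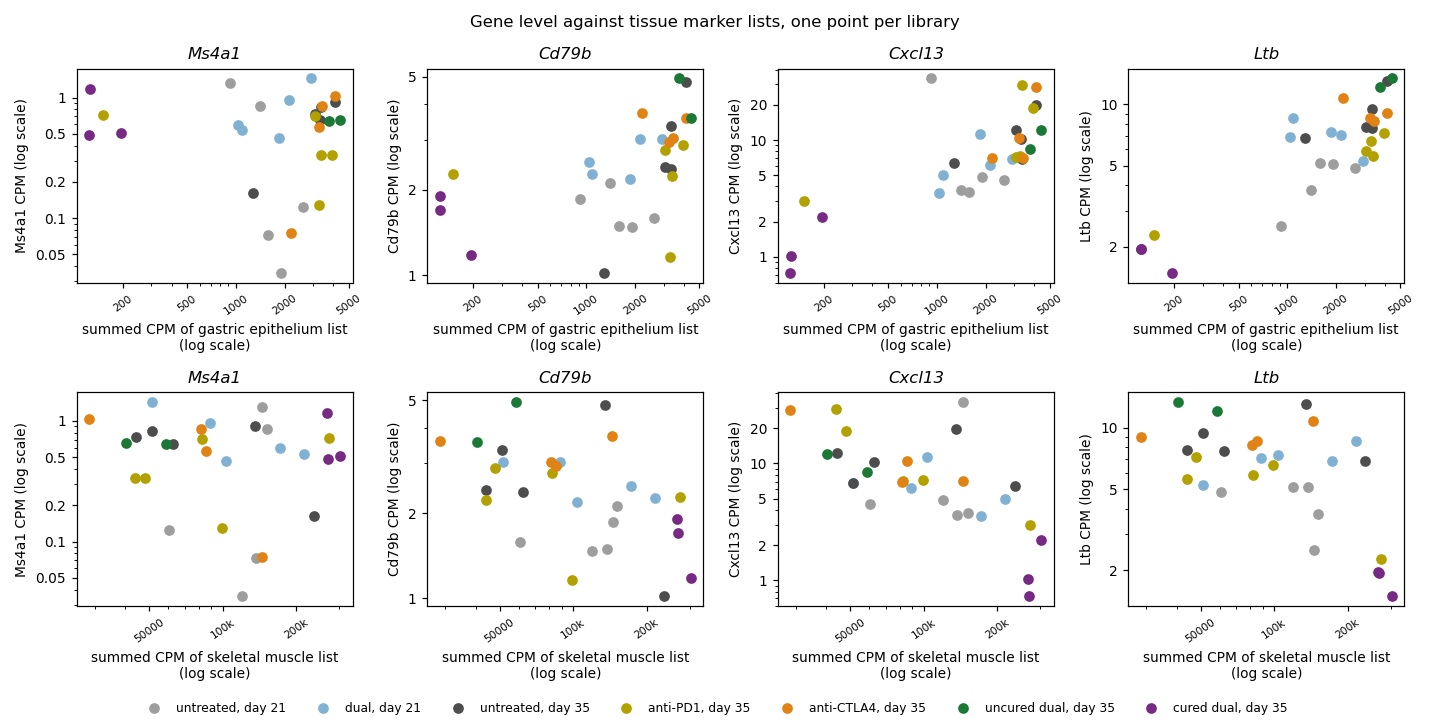
CPM of Ms4a1, Cd79b, Cxcl13 and Ltb (y axes) against the summed CPM of the gastric epithelium list (upper row, x axis) and the skeletal muscle list (lower row, x axis), all on log scales, 1 point per library coloured by group. The 3 cured libraries and anti-PD1 mouse 5, at 124.2 to 194.9 CPM of gastric epithelium, hold the lowest Ltb values but lie within the range of the other libraries for Ms4a1.

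Within groups, some of the genes varied together. After the group means were removed from log2 CPM, Pearson's r over the 29 libraries was 0.62 between Ms4a1 and Cd79a, 0.58 between Cd79a and Cd79b and 0.54 between Ms4a1 and Cd79b. It was 0.63 between Ltb and Ccr7 and 0.48 between Ccl19 and Ccr7. Ltb and Ms4a1 varied in opposite directions, with r = −0.45. Cxcr5 had r of −0.16, 0.07 and −0.23 with Ms4a1, Cd79a and Cd79b, and 0.19 with its ligand Cxcl13. Ccr7 and Ltb had r of 0.72 and 0.69 with the gastric epithelium sum, and Ms4a1 and Cd79a had −0.08 and −0.05. Anti-PD1 mouse 5 lay far below its group in this sum (150.4 CPM, group median 3280 CPM). It was also the lowest of its group in Ltb and Ccr7, and its weight in these correlations was not tested. These values are descriptions, since the libraries share tissue composition and the counts of Ms4a1 are sparse.

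**Figure D4:**
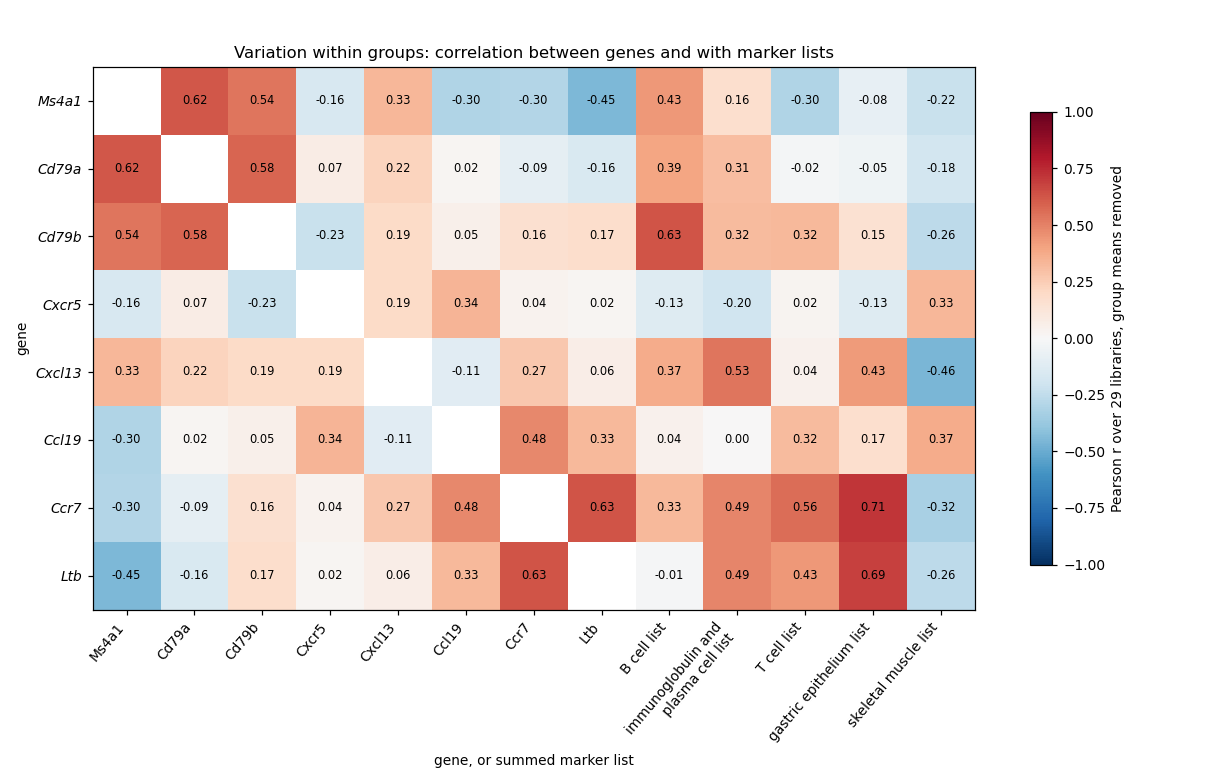
Pearson's r over 29 libraries, with group means removed, between the 8 genes (rows) and the same genes and 5 summed marker lists (columns). The 3 B cell surface genes form one positive set (0.54 to 0.62), and Ltb, Ccr7 and the gastric epithelium list form another (0.63 to 0.72). Anti-PD1 mouse 5, the lowest of its group in all members of the latter set, is included.

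The genes outside the set that varied most like each of the 8 were found in the same way among 15196 genes with a mean of at least 0.5 CPM. Those most like Ms4a1 included Fgf14 and Slc26a3 (both 0.65), and those most like Cd79b included the RNA sensor Tlr7 (0.77) and Atp8b4 (0.77). Cd79a was most like Gp2 (0.72), Stk38 (0.72) and Cd5l (0.71). Ccr7 was most like Tnn (0.89), Tnfrsf9, the costimulatory receptor 4-1BB (0.87), and Dut (0.85). Ltb was most like Gm15698 (0.83), Col16a1 (0.82) and Npm3 (0.81), and Ccl19 most like Nnmt (0.83), Gng10 (0.83) and Ffar2 (0.81). For Cxcl13 they included Il1r2, a decoy receptor for interleukin 1 (0.76), and Anxa3 (0.75), and for Cxcr5 they were Haus1 (0.68), Dcdc2b (0.65) and Car4 (0.65).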

How the data were processed

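Peritoneal tissue of 29 mice was measured by bulk RNA-seq. Whole-number counts for each gene symbol in each library were deposited by the authors, with no scaling applied. The submitters' processing notes name STAR 2.7.0f, featureCounts 1.6.4 and mm10, whereas the study's methods name other versions and another counter. The annotation, strand setting and treatment of reads with several matches are not given in the sources used here. Totals of 25989217 to 31219650 counts per library set the precision, and intervals cover the spread between mice.

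From these counts, log2 fold changes were fitted with edgeR 4.0.16 in R 4.3.3 (TMM, filterByExpr by group, quasi-likelihood test, two-sided, Benjamini-Hochberg adjustment over all genes tested, adjusted p under 0.05), with only the compared groups in a fit. SE is the log2 fold change divided by the root of F. Alternatives were DESeq2 1.42.0, other scaling, filters and sample sets, the replicate number as a block, and leaving out each mouse. CPM uses TMM factors over all 29 libraries. Correlations use log2 CPM with a prior count of 2. Promoters were searched for 3 motifs on both strands. The fits were checked on simulated counts. Gene positions come from GENCODE vM21 and promoters from RefSeq. All 9 genes are named; of the marker lists, the 4 most abundant genes and up to 8 called genes per comparison could be named, and the genes of low count that define a cell type were added after their values were seen. Of the immunoglobulin list, 10 constant-region genes had no row under their symbols in the count table and could not be analysed. Some listed or similar genes are not reported here. The members and lists were chosen with earlier results of these data known. Nothing says more of the mice of a group than that they are separate animals.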

Additional observations from a re-analysis of the deposited data

Results flagged for a closer look

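In 40 sets of 4 or 5 mice, each a gene in a group, 3 had a mouse farther from the others than Dixon's 95% limit. For normally distributed values, chance alone marks about 1 in 20. Untransformed CPM was used and all 3 were the highest of their sets, so that rate may not hold here. Cxcl13 in untreated mouse 2 at day 21 had 33.8 CPM, and the next highest mouse had 4.84 CPM. Cxcl13 in anti-CTLA4 mouse 1 had 28.7 CPM, and the next had 10.5 CPM. Ccl19 in untreated mouse 4 at day 35 had 7.52 CPM, and the next had 2.36 CPM.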

How the results depend on the processing

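Ltb, Ccr7 and Cxcl13 between cured and untreated mice, and Ltb, Ccr7, Cxcl13 and Cd79b between uncured and cured mice, were called in every alternative run. Leaving out 1 mouse gave 3 to 4 genes called of the 8 in the first comparison, 4 to 6 in the second, 0 to 3 between untreated mice of the 2 days (0 without mouse 5 of day 21), and 0 in each of the other 6. Where that left 1 uncured mouse, it was assumed to vary like the other group. The fit of all 29 libraries called 5 genes in cured against untreated mice (Ccl19 and Cd79b added), 3 with all dual ICI mice together (Ccl19, Ccr7 and Ltb) and 2 between days (Cd79a and Ltb). DESeq2 called 1 at day 21 (Ltb) and 2 between days (Cd79a and Ltb). Over all genes, the 89 calls at day 21 became 501 with DESeq2, 209 with the replicate block and 6 to 52 without one of 7 mice, fewest without untreated mouse 5. The 7067 calls in cured mice became 4016 with the block, and 4491 and 4515 without cured mice 3 and 4. The 1687 between days became 3150 with DESeq2, 4915 without untreated mouse 2 of day 35, and 654 to 1078 without one of 6 other mice. The 0 calls with all dual ICI mice became 2693 in the fit of all 29 libraries. The cause of these shifts was not tested.

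Deviations of same-numbered mice had correlations of either sign, from −0.696 to 0.742. The numbers were not taken as pairs, and these values cannot show whether they mark pairs. In dual ICI mice of day 21, the numbers in most library names differ from those in the titles. The block at day 21 and for the interaction therefore rests on renumbered mice. With the number as a block, log2 differences of genes not called turned to 0.093 for Cxcl13 at day 21, −0.071 for Cxcl13 with anti-PD1, 0.14 for Cxcl13, 0.38 for Cxcr5 and 0.26 for Ccl19 in uncured against untreated mice, 0.12 for Cd79a in cured against untreated mice and 0.015 for Cd79b in the interaction. The last was 0.0091 with upper-quartile scaling. Uncured and cured mice share no number, so no block was fitted there.

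Leaving out 1 mouse turned the sign of other differences that were not called. With anti-PD1 these ran from −0.53 to 0.059 for Cd79a, −0.29 to 0.56 for Cxcl13, −0.91 to 0.090 for Ccl19 and −0.32 to 0.059 for Ccr7. With anti-CTLA4 they ran from −0.39 to 0.30 for Ms4a1, −0.45 to 0.55 for Cxcl13, −1.03 to 0.019 for Ccl19 and −0.069 to 0.19 for Ltb. In uncured against untreated mice they ran from −0.26 to 0.10 for Ms4a1, −0.44 to 0.19 for Cxcl13, −0.90 to 0.14 for Cxcr5 and −0.85 to 0.13 for Ccl19. In cured against untreated mice they ran from −0.39 to 0.38 for Ms4a1 and −0.54 to 0.087 for Cd79a, and in uncured against cured mice from −0.43 to 0.34 for Ms4a1 and −0.15 to 0.88 for Cxcr5. With all dual ICI mice they ran from −0.19 to 0.22 for Ms4a1, −0.014 to 0.58 for Cd79a and −0.40 to 0.22 for Cd79b. Between days they ran from −0.19 to 1.42 for Cxcl13, −0.10 to 0.34 for Cxcr5 and −0.047 to 0.28 for Ccr7. At day 21 the range was −0.91 to 0.66 for Cxcl13. For the interaction they ran from −0.10 to 0.53 for Cd79a, −0.26 to 0.27 for Cd79b, −0.77 to 0.81 for Cxcl13, −0.55 to 0.46 for Cxcr5 and −0.19 to 0.32 for Ccr7. Counts of 1 to 54 per library limit what can be said of Ms4a1.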

Other observations

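The balance of the B cell receptor chains and the plasma cell genes were not part of the comparisons above. The ratio of Cd79a to Cd79b counts had a median of 0.317 in untreated mice at day 21 (0.21 to 0.521) and 0.333 in dual ICI mice of that day (0.21 to 0.434). At day 35 it had a median of 0.48 in untreated mice (0.272 to 0.634), 0.454 in anti-PD1 mice (0.295 to 0.727), 0.77 in anti-CTLA4 mice (0.43 to 1.38), 0.552 in uncured mice (0.493 to 0.611) and 0.667 in cured mice (0.6 to 0.783). The ratio was chosen after the values were seen and was not tested.

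Jchain, the joining chain of secreted polymeric antibodies, had 163 to 197 CPM in the uncured mice, 32.3 to 48.1 CPM in the cured mice and 5.04 to 145 CPM in untreated mice at day 35. It was 4.52-fold higher in uncured than in cured mice (log2 2.18, SE 0.16, edgeR adjusted p = 4.38e-06). Of 8 plasma cell genes tested in that comparison, 6 rose and 1 fell, where 36.9% of all genes rose and 33.1% fell. The list was led in level by Xbp1 (mean 171.2 CPM over all libraries) and Sdc1 (110.8 CPM). Gastric epithelium sums were also higher in the uncured mice, at 3738 to 4422 CPM against 124.2 to 194.9 CPM. The cells that expressed the listed genes were not identified. Pou2af1 of the B cell list, a coactivator of B and plasma cells, was 6.05-fold higher (log2 2.60, SE 0.26, adjusted p = 3.39e-05). Against untreated mice at day 35, the uncured mice differed by 1.86 for Jchain (SE 0.85, adjusted p = 0.734).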
